A study of Drosophila melanogaster with 46 samples.

Results

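Of the 124 transposable elements (TEs) whose small RNAs were tabulated in cultured Drosophila ovarian somatic cells, 33 had almost none. They were chosen by level: the sense and antisense values of a TE were added, averaged over 6 libraries, and had to be under 10 RPM (reads per 1000000 reads of the library). HeT-A, TAHRE and the TART elements, the retrotransposons that maintain fly telomeres, were left out whatever their level. These were 5 elements, of which HeT-A (7.99 RPM) and TAHRE (7.22 RPM) lay under the threshold. The other 86 TEs lay at or above it. The low levels of the 33 elements are therefore the criterion itself and not a result, and no test is given for them.

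The libraries came from OSC, a cell line of ovarian follicle origin that has a Piwi pathway and no germ cells. There were 2 libraries of input small RNA, 2 of small RNA recovered with Piwi by immunoprecipitation (Piwi-IP) and 2 recovered with CG9754 (CG9754-IP), a nuclear partner of Piwi also known as Panoramix or Silencio. The input is labelled with no genotype change and the precipitates only by the protein recovered. The treatment note attached to all samples describes siRNA transfection with a readout 4 days later, but names no target for these 6. A mock precipitate was not used here, nor were the other 40 samples. OSC is 1 line, and whether the paired libraries come from different cultures is not labelled, so p-values measure only the spread between these libraries, which may be technical. In RNA from a whole culture, fewer cells with a small RNA and less of it per cell cannot be told apart.

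PIWI-interacting RNAs (piRNAs) are small RNAs loaded on Piwi-clade Argonaute proteins. Piwi enters the nucleus with piRNAs that are antisense to TEs and, together with CG9754, directs silencing of the TE copies that match them. In follicle cells the piRNAs come mainly from the flamenco cluster, which is rich in gypsy-type LTR elements that can infect the germline, whereas germ cells draw on other clusters and cover a wider range of TEs. LTR elements and LINEs move through an RNA copy, and most DNA transposons are cut out and pasted elsewhere.

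The 33 elements were spread over the TE classes unevenly. DNA transposons gave 11 of the 21 in the table (52.4%), LINEs 11 of the 32 that are not telomeric (34.4%), and LTR retrotransposons, the class that flamenco is rich in, 10 of 61 (16.4%). Of the 3 Helitron-like elements, which replicate by a rolling circle, 1 was included, and of the 2 foldback elements none. The LTR elements were Osvaldo, gypsy7, gypsy8, gypsy9, frogger, invader5, invader6, micropia, Max-element and Burdock. The LINEs were G7, G5A, G3, G-element, BS3, BS4, Fw2, R1-2, R2-element, Rt1a and Rt1c. The DNA transposons were P-element, looper1, Transib1, Transib5, Bari1, Bari2, Tc3, NOF, S2, mariner2 and pogo, and the last element was Helitron. Transib1 and Rt1a stand in the table as Repbase_Transib1 and Repbase_Rt1a. Of 20 TEs commonly described as targets of germline-dominant piRNAs, 5 were among the 33 (25%): Bari1, Burdock, G-element, Max-element and P-element. Of 11 TEs commonly described as flamenco targets, 0 were. The rule took 33 of all 119 non-telomeric TEs (27.7%), so the germline share is near that of the table. Of the 15 non-telomeric germline TEs it took 5 (33.3%).

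The mean level per element had a median of 3.98 RPM, against 188 RPM for the 86 other TEs, whose highest value was 32361 RPM. A mean under 1 RPM was found for 6 elements, 1 to 5 RPM for 18, and 5 to 10 RPM for 9. Just inside the threshold were Burdock (9.87 RPM), G5A (9.82 RPM) and pogo (9.33 RPM), and just outside it transib3 (10.4 RPM), S-element (11.2 RPM), Chouto (12.3 RPM) and Tc1-2 (13.4 RPM). RPM is not scaled by the length of an element, so this order is one of reads and not of reads per base. The values form a continuous series through the threshold, with no gap there.

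Each library could be read as whole reads, because every value in it was a multiple of 1 step. The steps give library totals of 18861900 and 15327200 reads for input, 15064800 and 12493500 for Piwi-IP, and 26138400 and 19874200 for CG9754-IP. All 33 elements together held 13962 reads over the 6 libraries. Per library this was 2476 and 1987 reads in input, 2051 and 1724 in Piwi-IP, and 3809 and 1915 in CG9754-IP. The median element had 72 and 61 reads in input, 57 and 50 in Piwi-IP, and 96 and 47 in CG9754-IP. The typical element was thus measured by 47 to 96 reads per library, not by single reads.

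P-element and Helitron were at 0 on both strands in all 6 libraries. P-element is the DNA transposon behind hybrid dysgenesis, which entered D. melanogaster recently and is missing from many older laboratory stocks. A count of 0 allows up to 3 reads, which is 0.159 and 0.196 RPM in input, 0.199 and 0.240 RPM in Piwi-IP, and 0.115 and 0.151 RPM in CG9754-IP. The limit covers counting error only. The other 31 elements had at least 1 read in every library, and 24 had reads on both strands in every library.

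Zeros were mostly on the sense strand. Among the 198 values of each strand, 25 were 0 on the sense strand and 14 on the antisense strand; without P-element and Helitron these numbers were 13 and 2. G7, a LINE of the jockey group, had 0 sense reads in 4 libraries. The LTR elements gypsy7 and gypsy9 had 0 sense reads in 3 libraries each, and BS4, Osvaldo and R1-2 in 1 each. Both antisense zeros belonged to R2-element, in the 2 Piwi-IP libraries. The lowest elements with reads were G7 with 14 reads over all libraries, BS4 with 42, Osvaldo with 77, R1-2 with 81 and looper1 with 121. G7 had 1 to 3 reads per library, at or under 3 reads, so no difference in it was detectable at this depth. Burdock had the most, with 1087 reads.

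**Figure D1:**
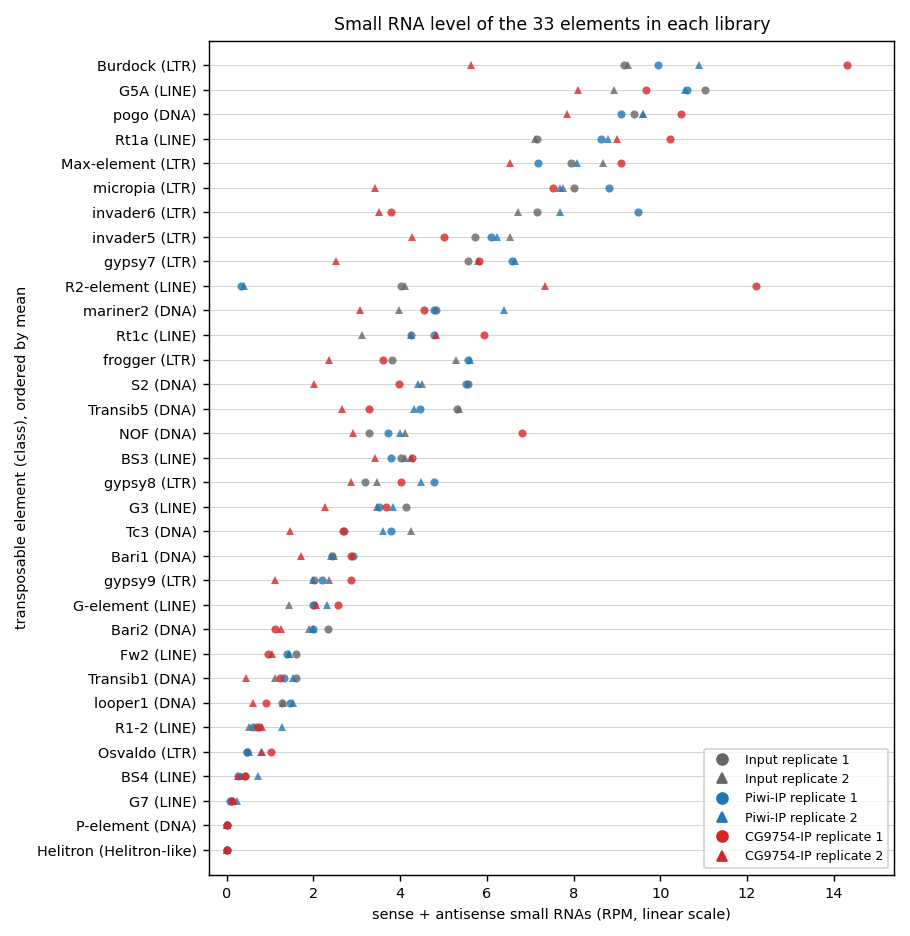
Small RNA level of each of the 33 elements in the 6 libraries, sense and antisense added, in RPM on a linear axis, with the elements ordered by their mean. Colours mark the groups and shapes the replicates, and P-element and Helitron lie at 0 in all of them, while R2-element has its 2 Piwi-IP points at 0.332 and 0.400 RPM, far below its input and CG9754-IP points.

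The few small RNAs of these elements came from both strands. Over the 31 elements with reads, the antisense share, from reads summed over the 6 libraries, had a median of 67.8% and ran from 1.14% to 99.3%. It lay between 25% and 75% in 17 of them (54.8%) and over 90% in 2 (6.45%). Among the 86 other TEs the median was 89.1%, with 17 (19.8%) between 25% and 75% and 42 (48.8%) over 90%. These shares describe the elements, and the difference between the sets was not tested. Antisense reads outnumbered sense reads in all 6 libraries for 17 elements, sense reads outnumbered antisense in all 6 for 5, and 9 were mixed.

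The most antisense were gypsy7, at 99.3% of reads (exact Clopper-Pearson 95% interval 98.2% to 99.8%, counting error only), and gypsy9, at 97.8% (94.98% to 99.3%). The 5 elements with more sense reads in every library were R2-element at 1.14% antisense, Tc3 at 20.50%, frogger at 25.7%, gypsy8 at 26.3% and Bari2 at 35.2%. Tc3 and Bari2 are DNA transposons of the Tc1-mariner type, frogger and gypsy8 are LTR elements, and R2-element is a LINE that inserts at 1 site of the 28S ribosomal RNA genes. Close to even were pogo at 49.8%, also a DNA transposon of the Tc1-mariner type, G5A at 48.6% and Rt1c at 51.2%, both LINEs. The numbered gypsy elements thus differed in strand, with gypsy7 and gypsy9 nearly all antisense and gypsy8 mostly sense.

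**Figure D2:**
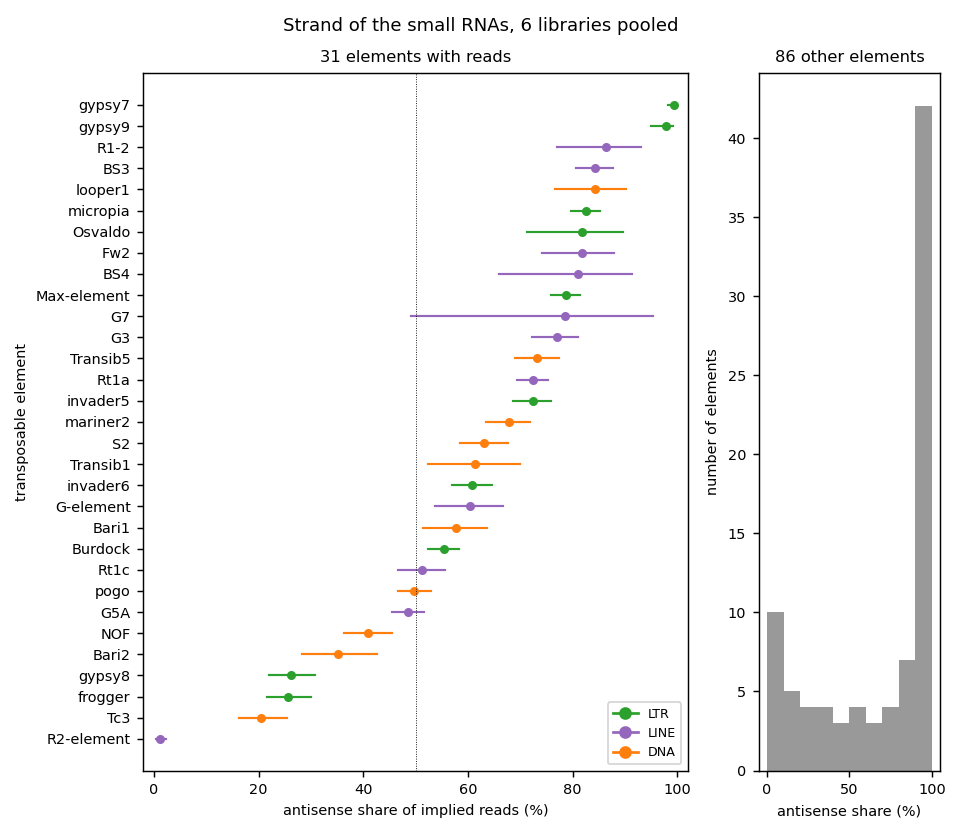
Antisense share of the small RNAs of each element with reads, in percent of the reads summed over 6 libraries, with exact 95% intervals for counting error and colours for the class (left), beside a histogram of the same share in the 86 other TEs (right). Of the 31 elements 17 lie between 25% and 75%, and gypsy7 (99.3%) and R2-element (1.14%) mark the ends.

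Added together, the 33 elements were a very small part of the TE signal in each kind of library. Their summed level was 131 and 130 RPM in input, 136 and 138 RPM in Piwi-IP, and 146 and 96.4 RPM in CG9754-IP. The Piwi-IP libraries lay just above the input libraries, and the CG9754-IP libraries lay on both sides of all the others. The means were 130 ± 1.15 RPM (SD, n = 2, here and below) for input, 137 ± 1.31 for Piwi-IP and 121 ± 34.9 for CG9754-IP. An exact permutation test of 2 libraries against 2 cannot go below p = 0.333, and none is given. The ratio of Piwi-IP to input was 1.05 (0.07 on the log2 scale), but it turned to −0.09 after scaling the libraries to equal TE totals and to −0.08 after scaling them by their median ratio over TEs. The ratio of CG9754-IP to Piwi-IP was 0.883 and that of CG9754-IP to input 0.928, both smaller than the spread between the CG9754-IP libraries. As a share of all TE reads the sum was 0.0583% ± 0.00049 for input, 0.0547% ± 0.00089 for Piwi-IP and 0.0613% ± 0.016 for CG9754-IP.

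The antisense part of this sum was 61.6% ± 2.10 for input, 64.3% ± 0.23 for Piwi-IP and 56.4% ± 1.35 for CG9754-IP, against 94.5% ± 0.057, 94.8% ± 0.016 and 90.6% ± 0.040 over all TEs of the table. Both CG9754-IP libraries lay below the other 4, for these elements and for all TEs. R2-element made up 7.83% ± 0.48 of the sense sum of the 33 elements of input, 0.748% ± 0.096 of Piwi-IP and 18.2% ± 0.69 of CG9754-IP. Without it the sense sum was 46.2 ± 3.17, 48.6 ± 0.10 and 43.3 ± 13.4 RPM.

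By class, the 10 LTR elements summed to 54.7 ± 2.33 RPM for input, 60.6 ± 0.72 for Piwi-IP and 45.1 ± 16.99 for CG9754-IP. The DNA transposons summed to 38.6 ± 0.10, 39.4 ± 0.53 and 30.96 ± 9.84 RPM. The LINEs summed to 37.1 ± 3.39, 37.04 ± 1.5 and 45.0 ± 8.08 RPM, and without R2-element to 33.03 ± 3.44, 36.7 ± 1.45 and 35.2 ± 4.65 RPM. The LTR sums of both Piwi-IP libraries lay above those of both input libraries. In all 3 classes the CG9754-IP libraries differed from each other by more than the input and Piwi-IP libraries did.

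**Figure D3:**
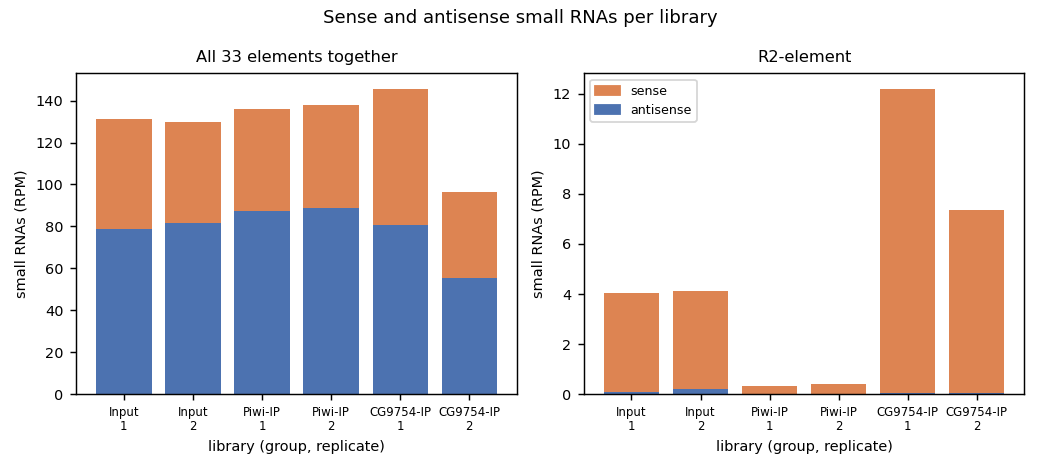
Small RNAs of all 33 elements together (left) and of R2-element alone (right) in each of the 6 libraries, in RPM, with antisense at the bottom of each bar and sense on top. The joint sum runs from 96.4 to 146 RPM, both extremes in CG9754-IP, while R2-element, almost wholly sense, is lowest in both Piwi-IP libraries and highest in both CG9754-IP libraries.

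The libraries of a group repeated each other for these elements within counting error in input and Piwi-IP and not in CG9754-IP. The chi-square per degree of freedom between the 2 libraries, over the 31 elements with reads, was 0.955 in input and 0.714 in Piwi-IP, where 1 is expected from counting alone. It was 10.1 in CG9754-IP. Over the 86 other TEs, which have many more reads, it was 15.7, 24.0 and 646, so the libraries of each group were counted as 2. CG9754-IP replicate 2 was lower than replicate 1 in 27 of the 31 elements (87.1%), and in 66 of the 86 others (76.7%). The exceptions were G7, R1-2, Fw2 and Bari2. The sum of the elements was 1.51 times as high in replicate 1 as in replicate 2, while that of the others was 1.03 times as high. The median ratio per TE differed less between the sets, at 1.40 for the elements and 1.15 for the others.

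More than 2-fold differences between the CG9754-IP libraries were seen in Transib1, gypsy9, NOF, gypsy7, micropia and Burdock. Burdock, an LTR element counted among the germline targets, had 9.03 and 1.46 RPM of sense small RNAs in CG9754-IP replicates 1 and 2, and 3.34 to 3.72 RPM in the other 4 libraries. NOF, a DNA transposon found within some foldback elements, had 4.78 and 1.26 RPM of sense small RNAs there, and 1.68 to 2.41 RPM in the others. For both, replicate 1 was the highest and replicate 2 the lowest of the 6 libraries on the sense strand. With both strands added, Burdock had 14.3 and 5.64 RPM in the CG9754-IP libraries, on either side of the 9.96 and 10.9 RPM of Piwi-IP, so its direction depends on which of them is used. Differences that rest on CG9754-IP are therefore given with and without each of its libraries. When 1 library of a group is left out, the remaining one is assumed to vary like the other groups.

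The first comparison, Piwi-IP against input, asks whether the few small RNAs of these elements were bound by Piwi in the proportion in which they occur. It was made with limma on log2(RPM + 1) over the 122 TEs with reads, with Benjamini-Hochberg adjustment over all of them and a threshold of 0.05 on the adjusted p. A fold change on that scale understates the change of low elements, and the cap on the mean of 6 libraries limits how high an element can be in any group. Of the 31 elements with reads, 1 passed, R2-element, which was lower. Over all TEs 2.46% passed, and all were lower. The same 1 element had an unadjusted p under 0.05, and limma-voom on the implied reads called 1 as well. The median log2 change was 0.08, against 0.15 over all TEs. Both Piwi-IP libraries lay above both input libraries in 8 of the 31 elements, looper1, gypsy8, frogger, Rt1c, gypsy7, invader6, Rt1a and Burdock. Over all TEs this was so for 64.8%, and the difference between the shares was not tested. The 31 elements have fewer reads than the other TEs. Both lay below in 2 elements, Transib5 and R2-element, against 4.92% of all TEs. The number of calls over all TEs depended on the CG9754-IP libraries, whose spread enters the fit: without either of them, or with input and Piwi-IP alone, 52 of 122 TEs were called (42.6%) and 3 of the 31 elements, R2-element lower and gypsy8 and Rt1a higher.

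On the antisense strand alone, limma called 0 of the 31 elements for Piwi-IP against input, with 1 at an unadjusted p under 0.05 and 0 by limma-voom, and 1.64% of all TEs. The median log2 change was 0.14, against 0.16 over all TEs. Rt1a, a LINE of the R1 group, had 4.45 and 5.02 RPM of antisense small RNAs in input, 6.77 and 6.56 in Piwi-IP, and 7.35 and 6.89 in CG9754-IP. Its input libraries were the lowest, with no overlap, but it did not pass. Without CG9754-IP replicate 1 or 2, it and mariner2 were called higher, beside 43.4% or 44.3% of all TEs. Both Piwi-IP libraries lay above both input libraries on this strand in 14 of the 31 elements (64.8% of all TEs) and below in 3 (7.38%).

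On the sense strand 1 of the 31 elements passed, again R2-element, and 3.28% of all TEs did. The median log2 change was −0.03, against 0.07 over all TEs. Both Piwi-IP libraries lay above both input libraries in 7 elements (34.4% of all TEs) and below in 4, NOF, R2-element, micropia and Max-element (11.5%).

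R2-element was the 1 element of the 31 that passed in all 3 comparisons with both strands added. Its sense small RNAs were at 3.92 and 3.91 RPM in input, 0.332 and 0.400 RPM in Piwi-IP, and 12.2 and 7.30 RPM in CG9754-IP. Both Piwi-IP libraries were below every other library and both CG9754-IP libraries above every other. In reads these were 74 and 60, then 5 and 5, then 318 and 145. Its antisense small RNAs numbered 0 to 3 reads in each library, at or under the limit of a count of 0.

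With both strands added, R2-element fell by 1.89 on the log2 scale from input to Piwi-IP (SE 0.23, limma adjusted p = 0.0075), with both libraries lower. From the reads, its level in Piwi-IP was 0.0893 of that in input (95% interval 0.0419 to 0.169, counting error only). CG9754-IP was above Piwi-IP by 2.94 on the log2 scale (SE 0.23, limma adjusted p = 0.00026), a ratio of 27.9 from the reads (15.01 to 58.5). CG9754-IP was above input by 1.05 (SE 0.23, limma adjusted p = 0.0160), a ratio of 2.49 (2.05 to 3.03). The intervals of both CG9754-IP ratios also cover counting error only. They pool 2 libraries that differed, at 12.2 and 7.35 RPM, and leave that spread out. Of these changes, the rise against Piwi-IP passed under all 14 alternative settings run. The fall against input did not pass with a pseudocount of 5 RPM, nor when 1 of the input or Piwi-IP libraries was left out, whichever it was (adjusted p 0.054 to 0.160). The rise against input did not pass in the fit of those 2 groups alone, nor when 1 of the same 4 libraries was left out (0.053 to 0.079). On the sense strand alone both changes passed under all 14 settings, at −1.85 (SE 0.23, limma adjusted p = 9.8e-05) and 2.94 (SE 0.23, limma adjusted p = 6.5e-08).

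R1-2 belongs to the R1 group of LINEs, whose namesake also inserts in the 28S ribosomal RNA genes. It had 0.742 and 0.522 RPM in input, 0.597 and 1.28 RPM in Piwi-IP, and 0.689 and 0.805 RPM in CG9754-IP, and its reads were 86.4% antisense. Its groups overlapped and no comparison passed. The pattern of R2-element was not particular to it, however. R1A1-element, an R1 element above the threshold and so not among the 33, had 12.4 and 12.5 RPM of sense small RNAs in input, 3.52 and 2.08 RPM in Piwi-IP, and 28.9 and 23.2 RPM in CG9754-IP, with the groups in the same order and no overlap. Its sense level fell by 1.85 on the log2 scale from input to Piwi-IP (SE 0.22, limma adjusted p = 9.8e-05) and was higher by 2.85 in CG9754-IP than in Piwi-IP (SE 0.22, limma adjusted p = 6.9e-08). The foldback elements FB and FB4 (Repbase_FB4) were the other TEs that passed on the sense strand, lower in Piwi-IP than in input. Their log2 changes were −0.85 and −0.91 (limma adjusted p = 0.0328 and 0.0037). These 3 TEs were added after their values were seen.

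The next comparison, CG9754-IP against Piwi-IP, asks whether both proteins were recovered with the same small RNAs. Of the 31 elements 5 passed (16.1%), R2-element higher and invader6, frogger, looper1 and Bari2 lower. Over all TEs 49.2% passed, with 7.38% higher and 41.8% lower, so the share called was smaller for these elements, which was not tested. Their median log2 change was −0.23, against −0.32 over all TEs. Scaling to equal TE totals or by median ratios shifted the median of all TEs to 0.00 and that of the elements to 0.00. The calls were then 1 higher and 1 lower (28.7% of all TEs called), or 2 higher and 1 lower (27.9% of all TEs). R2-element and invader6 were called in both, and Rt1a was added, higher, in the latter. Both CG9754-IP libraries lay below both Piwi-IP libraries in 15 of the 31 elements (60.7% of all TEs) and above them in 4, Osvaldo, Rt1c, R2-element and Rt1a (13.9% of all TEs). Without CG9754-IP replicate 1 the count of calls was 18, of which 17 were lower, and 80.3% of all TEs were called. Without replicate 2 it was 8, of which 5 were lower, beside 59.0% of all TEs. Without either Piwi-IP library it was 2 (27.0% or 31.1% of all TEs), and without either input library 3 (39.3%).

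invader6, an LTR element of the gypsy superfamily, had 7.16 and 6.72 RPM in input, 9.49 and 7.68 RPM in Piwi-IP, and 3.79 and 3.52 RPM in CG9754-IP. The CG9754-IP libraries were the lowest, with no overlap. It fell by 1.04 on the log2 scale from Piwi-IP to CG9754-IP (SE 0.16, limma adjusted p = 0.0027), under all 14 settings. Both strands took part. The antisense level fell by 1.07 on the log2 scale (limma adjusted p = 0.0078), which did not pass without Piwi-IP replicate 1 (0.056). The sense level fell by 0.71 on the log2 scale (limma adjusted p = 0.0065), which did not pass with either rescaling (0.062 and 0.072).

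frogger, an LTR element of the copia type, had 3.82 and 5.28 RPM in input, 5.58 and 5.60 RPM in Piwi-IP, and 3.6 and 2.36 RPM in CG9754-IP. Its CG9754-IP libraries were the lowest and its Piwi-IP libraries the highest. It fell by 0.74 on the log2 scale from Piwi-IP to CG9754-IP (SE 0.22, limma adjusted p = 0.0284), but did not pass with either rescaling or without either Piwi-IP library (0.085 to 0.142). The antisense level fell by 0.89 on the log2 scale (limma adjusted p = 0.0062), and did not pass without either Piwi-IP library (0.056 and 0.064).

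looper1, a DNA transposon of the piggyBac type, had 1.27 and 1.30 RPM in input, 1.46 and 1.52 RPM in Piwi-IP, and 0.918 and 0.604 RPM in CG9754-IP. It fell by 0.51 on the log2 scale from Piwi-IP (limma adjusted p = 0.0284). Bari2 had 2.33 and 1.89 RPM in input, 1.99 and 2.00 RPM in Piwi-IP, and 1.11 and 1.26 RPM in CG9754-IP, and fell by 0.46 on the log2 scale from Piwi-IP (limma adjusted p = 0.0409). In both elements the CG9754-IP libraries were the lowest of the 6. Neither passed with rescaling, with the 2 groups alone, or when 1 of the 4 libraries of input and Piwi-IP was left out, where looper1 reached 0.064 to 0.142 and Bari2 0.099 to 0.242. A replicate block also left both above the threshold. Bari2 also did not pass with a pseudocount of 5 RPM or by limma-voom (0.050 and 0.058). These small calls rest on the spread pooled over all libraries.

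On the antisense strand 4 of the 31 elements passed for CG9754-IP against Piwi-IP, all lower: invader6, frogger, looper1 and Transib1. Over all TEs 45.9% passed, 9.02% higher and 36.9% lower. The median change was −0.19 on the log2 scale, against −0.28 over all TEs. Both CG9754-IP libraries lay below both Piwi-IP libraries in 15 elements (56.6% of all TEs). Without Piwi-IP replicate 1 or 2, 0 or 1 elements were called, beside 21.3% or 25.4% of all TEs. Without CG9754-IP replicate 1 there were 15, all lower, beside 75.4% of all TEs, and without replicate 2 there were 2, beside 54.9%. Transib1, of a DNA transposon family related to the source of the RAG1 recombinase, had 0.848 and 0.718 RPM of antisense small RNAs in input, 0.996 and 1.04 in Piwi-IP, and 0.574 and 0.403 in CG9754-IP. It fell by 0.44 on the log2 scale (limma adjusted p = 0.0255), and did not pass with either rescaling, without either Piwi-IP library, or without CG9754-IP replicate 2 (0.076 to 0.131). The antisense fall of looper1, by 0.50 (limma adjusted p = 0.0203), was lost under the same 5 settings (0.059 to 0.097).

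On the sense strand 3 of the 31 elements passed, R2-element higher and invader6 and invader5 lower. Over all TEs 45.1% passed, of which more were higher (32.0% of all TEs) than lower (13.1%). The median log2 change was −0.06 for the elements and 0.05 over all TEs. Both CG9754-IP libraries lay above both Piwi-IP libraries in 2 elements, Rt1c and R2-element (38.5% of all TEs), and below in 9 (26.2%). Without CG9754-IP replicate 1 there were 6 calls, 5 of them lower, beside 52.1% of all TEs, and without replicate 2 there were 5, of which 4 were higher, beside 45.9%. Without Piwi-IP replicate 1 there were 2, beside 39.3%. invader5, another LTR element of the gypsy superfamily, had 1.80 and 1.5 RPM of sense small RNAs in input, 2.46 and 1.60 in Piwi-IP, and 0.880 and 1.36 in CG9754-IP. Its CG9754-IP libraries were the lowest. It fell by 0.51 on the log2 scale (limma adjusted p = 0.0419) and did not pass in 7 of the 14 settings, among them without Piwi-IP replicate 1 (0.340), CG9754-IP replicate 1 (0.228) or CG9754-IP replicate 2 (0.070). Scaled to equal TE totals, the sense calls were 2 higher and 0 lower, beside 46.7% of all TEs called.

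**Figure D4:**
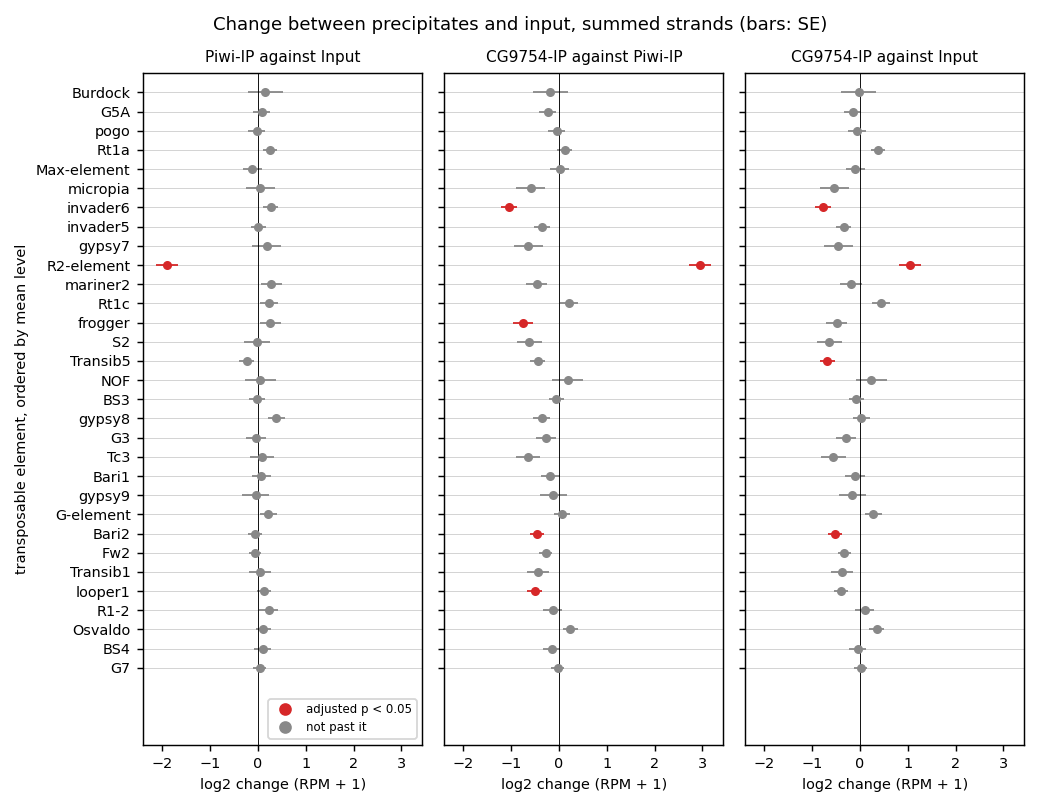
Log2 change (RPM + 1, both strands added) of the 31 elements with reads in the 3 comparisons, with the standard error from limma as bars and red points for an adjusted p under 0.05. R2-element is the 1 red point for Piwi-IP against input (−1.89) and the far right point against Piwi-IP (2.94), and invader6 is the lowest point against Piwi-IP (−1.04).

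The last comparison, CG9754-IP against input, shares the CG9754-IP libraries with the one before, so their calls are not independent. Of the 31 elements 4 passed, R2-element higher and invader6, Bari2 and Transib5 lower, against 32.0% of all TEs, 9.02% higher and 23.0% lower. Both CG9754-IP libraries lay below both input libraries in 10 elements (48.4% of all TEs) and above them in 5 (20.5%). Over the elements the median log2 change was −0.15, against −0.18 over all TEs. Transib5 had 5.30 and 5.35 RPM in input, 4.45 and 4.32 RPM in Piwi-IP, and 3.29 and 2.67 RPM in CG9754-IP. Input was highest and CG9754-IP lowest, with no overlap. It fell by 0.67 on the log2 scale (SE 0.15, limma adjusted p = 0.0174). invader6 fell by 0.77 (limma adjusted p = 0.0144) and Bari2 by 0.51 (limma adjusted p = 0.0375) on the same scale. None of these passed without either input library (0.099 to 0.293), and Transib5 and Bari2 also not without either Piwi-IP library (0.057 to 0.073). Transib5 and Bari2 did not pass with the 2 groups alone either. Bari2 also did not pass with either rescaling (0.073 and 0.083), with a replicate block or by limma-voom. Without CG9754-IP replicate 1 the count was 16 calls, 14 of them lower, beside 66.4% of all TEs, and without replicate 2 it was 8, of which 5 were higher, beside 51.6%. It was 0 without either input library (9.84% or 10.7% of all TEs) and 1 without either Piwi-IP library (17.2%).

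With all 6 libraries, the elements of the germline list did not pass in any of these comparisons. G-element, a jockey-type LINE, had 2.01 and 1.44 RPM in input, 1.99 and 2.32 RPM in Piwi-IP, and 2.56 and 2.06 RPM in CG9754-IP. Max-element, an LTR element of the BEL type, had 7.95 and 8.68 RPM in input, 7.17 and 8.08 RPM in Piwi-IP, and 9.11 and 6.54 RPM in CG9754-IP. Bari1, a Tc1-mariner element, had 2.44 and 2.48 RPM in input, 2.92 and 2.40 RPM in Piwi-IP, and 2.87 and 1.71 RPM in CG9754-IP. Burdock had 9.17 and 9.26 RPM, 9.96 and 10.9 RPM, and 14.3 and 5.64 RPM. For Max-element and Burdock the CG9754-IP libraries were the highest and the lowest of the 6, and P-element was at 0.

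Among the other well-known elements that did not pass, Tc3 had 2.70 and 4.24 RPM in input, 3.78 and 3.6 RPM in Piwi-IP, and 2.68 and 1.46 RPM in CG9754-IP. mariner2, of the DNA transposon family of that name, had 4.82 and 3.98 RPM, 4.78 and 6.4 RPM, and 4.55 and 3.07 RPM. micropia, an LTR element of the gypsy superfamily, had 8.01 and 7.76 RPM, 8.83 and 7.68 RPM, and 7.54 and 3.42 RPM. In each of these 3 the lowest library was CG9754-IP replicate 2. pogo had 9.38 and 9.59 RPM, 9.09 and 9.60 RPM, and 10.5 and 7.85 RPM, with its CG9754-IP libraries the highest and the lowest. Osvaldo, an LTR element first described in D. buzzatii, had 0.477 and 0.522 RPM, 0.465 and 0.800 RPM, and 1.03 and 0.805 RPM. Its CG9754-IP libraries were the 2 highest, at 27 and 16 reads, without passing.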

How the data were processed

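Small RNAs of 6 OSC libraries were analysed from a deposited table of 124 TEs with a sense and an antisense value per library. No unit stands in its header. The authors' deposited numbers were taken as RPM, because within a library they are all whole multiples (tolerance 0.02 reads) of the same step. This gives library totals of 12493500 to 26138400 reads and, for a count of 0, a limit of 3 reads. The submitters' processing notes list the build dm3 and the tools Bowtie 0.12.7, cutadapt 1.0, bedtools 2.16.1 and SAMtools 0.1.16, with no role or order. Size range, mismatches and the treatment of reads matching several TEs are not given in the sources used here, and similar TEs may share reads. The table of piRNA clusters in the series was not used here.

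All 6 libraries entered 1 limma fit by group on log2(RPM + 1) (limma 3.58.1 under R 4.3.3, trended eBayes, two-sided). No filter was used, since it would remove the elements; the 122 TEs with a read were tested and p-values adjusted over all of them. Intervals are exact (scipy 1.17.1) and cover counting error only. Tables and plots were made with Python 3.11.15, pandas 2.3.3, numpy 2.4.6 and matplotlib 3.10.9. The fit was tested on simulated data for CG9754-IP against Piwi-IP (122 TEs, 20 runs, noise SD 0.1 on the log2 scale): it found 88% of the low elements changed 2-fold, 100% of those of at least 3 RPM and 100% of those changed 4-fold, with 0.8 and 0.65 false calls per run. The noise was equal in all groups, unlike in the data. There the chi-square per degree of freedom between the CG9754-IP libraries was 10.1 over the 31 elements, where 1 is expected from counting alone. The shares found in simulation therefore do not give the power of the fit on these data.

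The elements and lists were chosen with earlier results of these data known. TE classes and the germline and flamenco lists are commonly used assignments. Elements given with values are the 8 highest and 5 lowest, those past the threshold without overlap between libraries, and a fixed list of well-known DNA transposons and retrotransposons. G-element, Max-element, NOF, Rt1c, gypsy8, gypsy9 and, outside the rule, R1A1-element, FB and FB4 were described further after their values were seen. Alternatives were other pseudocounts, a filter of 1 RPM, rescaling, fits of 2 groups, a replicate block, leaving out each library, other thresholds for the elements and, added after seeing the data, limma-voom and sums without R2-element.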

Additional observations from a re-analysis of the deposited data

How the results depend on the processing

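Single-element calls were repeated under 14 alternatives each: of 252 repeats, 182 passed again, 70 did not and 0 turned direction. Counts of called elements moved more. For both strands added, Piwi-IP against input gave 0 with a pseudocount of 5 RPM (1.64% of all TEs). It gave 3 with the 2 groups alone (42.6%, against 2.46% in the fit of 3 groups). With elements under 20 RPM it gave 2 of the 41 tested (4.88%, beside 2.46% of all TEs). The count also moved when 1 library was left out. CG9754-IP against Piwi-IP gave 2 or 3 with scaling to equal TE totals or median ratios, 3 with the 2 groups alone (39.3% of all TEs), 9 under 20 RPM, and 2 to 18 when 1 library was left out. CG9754-IP against input gave 1 with the 2 groups alone (17.2% of all TEs) and 0 to 16 when 1 library was left out. For antisense, Piwi-IP against input gave 2 with the 2 groups alone (44.3% of all TEs), 1 under 20 RPM and 0 to 2 when 1 library was left out; CG9754-IP against Piwi-IP gave 2 with either rescaling, 8 under 20 RPM and 0 to 15 when 1 library was left out. For sense, Piwi-IP against input gave 2 with a pseudocount of 5 RPM, with the 2 groups alone and under 20 RPM; CG9754-IP against Piwi-IP gave 1 under 5 RPM, 7 under 20 RPM and 2 to 6 when 1 library was left out. The share of all TEs called moved too. For CG9754-IP against Piwi-IP, rescaling to TE totals or median ratios gave 28.7% or 27.9% with both strands added, against 49.2%. For antisense it gave 31.1% or 27.9%, against 45.9%. For sense, Piwi-IP against input gave 3.28% with a pseudocount of 5 RPM, as in the fit of 3 groups, and 5.83% with the 2 groups alone. Cuts at 5 and 20 RPM do not change the fit, so the share stayed the same. Most shares without 1 library stand above. The summed level of Piwi-IP against input (0.07, log2) was −0.092 and −0.077 with the rescalings, 0.025 for elements under 5 RPM, 0.030 under 20 RPM and 0.11 without R2-element. The cause was not tested beyond the construction of each setting, which changes the elements counted (24 under 5 RPM, 43 under 20 RPM) or the libraries.

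Same-numbered deviations from the group means correlated at −0.17 (input and Piwi-IP), −0.06 (input and CG9754-IP) and −0.05 (Piwi-IP and CG9754-IP) over 122 TEs. Over the 31 elements these were −0.11, −0.28 and 0.28. Whether same-numbered libraries were paired is not labelled. The correlations cannot settle it, since for the elements the input and Piwi-IP replicates differed only within counting error. With a replicate block the counts were 4 for CG9754-IP against Piwi-IP (47.5% of all TEs) and 3 for CG9754-IP against input (36.1%). For Piwi-IP against input the count was 1 (2.46%). The block left looper1 (adjusted p 0.059) and Bari2 (0.086 against Piwi-IP, 0.076 against input) above the threshold with both strands added, and invader5 (0.094) on the sense strand. All values were whole multiples of the step of their library, and intervals and limma-voom rest on the reads this implies. The planned count-model alternatives were not run, because the 12 to 30 low values per library and strand that fix the step were held to be too few for a count test. Depth limits G7, BS4 and the antisense strand of R2-element, which rest on a few reads per library.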
